A study of Mus musculus with 6 samples.

Results

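The ephrin, Slit-Robo and netrin guidance genes were followed across endothelium-enriched cells of 3 tissues of the mouse embryo at day 9.5. The set comprised every gene with a probe set annotated to a single symbol of the Eph receptor, ephrin, Slit, Robo, Unc5 and netrin families, plus Dcc and Neo1. It held 38 genes of the 18193 measured, 15 of them ligands and 23 receptors. Where a gene had several probe sets, as 21 of the 38 did, the one with the highest mean over the 6 arrays stood for it.

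The 3 groups were cells of the heart tube, of caudal-half tissue and of the yolk sac, with 2 independent biological replicates each on 1 Affymetrix array apiece. All came from freshly isolated tissue of mice of mixed background at E9.5, and the sample names carry the tag Wt. Every fraction was sorted by flow cytometry as CD31+/CD41-/CD45-, a gate that keeps cells with the endothelial surface protein CD31 and removes early blood progenitors and leukocytes. How many embryos were pooled for each sample is not stated in the labels. Levels are log2 values, taken as the natural log of the authors' deposited RMA signals. If those signals were linear instead, levels and differences would have to be multiplied by 1.44, with the same p-values.

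Eph receptors are receptor tyrosine kinases whose ligands, the ephrins, are themselves anchored in the membrane of a neighbouring cell, so that signals can run both ways at a contact. Slits are secreted proteins that act through Robo receptors, and netrins are secreted laminin-like proteins read by DCC, neogenin and the Unc5 receptors. All 3 systems were first known for steering axons, and ephrin-B2 with EphB4, Robo4 and Unc5b are known for their roles in arteries, veins and vessel sprouting.

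The sorted fractions carried endothelial markers, and they also differed in markers of other cells. Over 10 pan-endothelial genes the mean level was 9.30 and 9.52 in the heart tube, 10.20 and 10.29 in caudal-half tissue, and 10.39 and 10.43 in the yolk sac. None of these 10 genes was within 1.33 to 4.03 in any tissue, the range of 27 probe sets for bacterial RNAs that describes a weak signal here. Mesenchymal markers (8 genes) averaged 7.69 and 7.74 in the heart tube, 6.04 and 5.98 in caudal-half tissue and 7.65 and 7.48 in the yolk sac. Visceral endoderm markers (8 genes) averaged 4.37 and 4.38 in the heart tube, 4.65 and 4.72 in caudal-half tissue and 10.43 and 10.34 in the yolk sac. Itga2b, which encodes the CD41 of the gate, had a mean of 6.87 for heart tube, 6.61 for caudal-half and 8.28 for yolk sac arrays. The CD45 gene Ptprc averaged 2.47 to 2.79 per tissue, near the bacterial controls. Replicate arrays correlated at r = 0.981 to 0.986 across all probe sets without controls, and arrays of different tissues at 0.946 to 0.969.

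**Figure D1:**
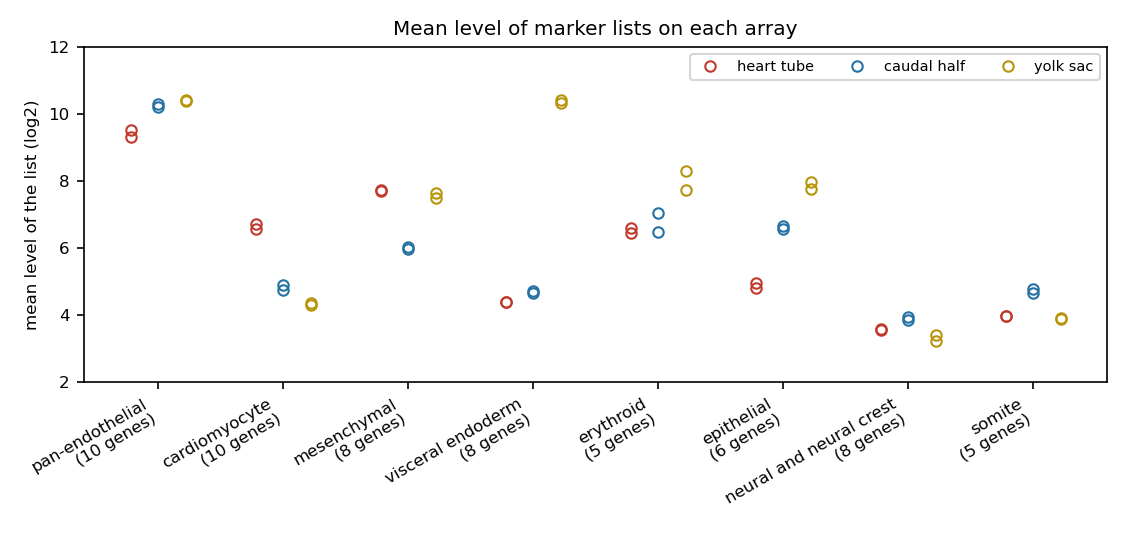
Mean level (log2) of each marker list on each array, with 2 circles per tissue and the number of measured genes under each list. The yolk sac circles stand at 10.43 and 10.34 for visceral endoderm markers, and the heart tube circles are lowest for pan-endothelial and epithelial markers.

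Of the 38 guidance genes, 14 differed between at least 1 pair of tissues and 24 did not pass the test in any comparison (limma, Benjamini-Hochberg adjusted p under 0.05 over all 18193 genes). In the heart tube 2 genes were above and 3 below their level in the caudal-half tissue, or 13.2% of the 38 beside 5.51% of all genes (2.86% higher and 2.65% lower). Against the yolk sac 7 were higher and 5 lower in the heart tube, 31.6% beside 11.8% of all genes (5.14% higher and 6.67% lower). Caudal-half tissue had 3 above and 2 below the yolk sac, 13.2% beside 9.08% (4.22% higher and 4.86% lower). The median difference over the 38 genes was -0.03, -0.06 and 0.14 in these 3 comparisons, beside -0.08, -0.06 and 0.02 over all genes. The 3 comparisons share arrays in pairs. In bulk RNA of sorted cells, fewer cells of a type and less RNA per cell cannot be told apart.

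Among the 23 receptors, 7 were higher and 2 lower in heart tube cells when set against the yolk sac, and among the 15 ligands 0 were higher and 3 lower. That is 39.1% of the receptors and 20% of the ligands, beside 11.8% of all genes (5.14% higher and 6.67% lower). Against the caudal-half tissue, 2 receptors were higher and 1 lower, and 0 ligands were higher and 2 lower. The unadjusted p was under 0.05 for 12 receptors and 8 ligands in the first of these comparisons, beside 4734 of all 18193 genes. In the second it was under 0.05 for 7 receptors and 5 ligands, beside 3556 of all genes, and in the third for 3 receptors and 6 ligands, beside 4337. Whether ligands and receptors differ in this was not tested. Of the 38 genes, 9 had all 3 tissue means inside the bacterial-control range and 4 had 1 or 2 means there, while 25 were above it in every tissue.

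**Figure D2:**
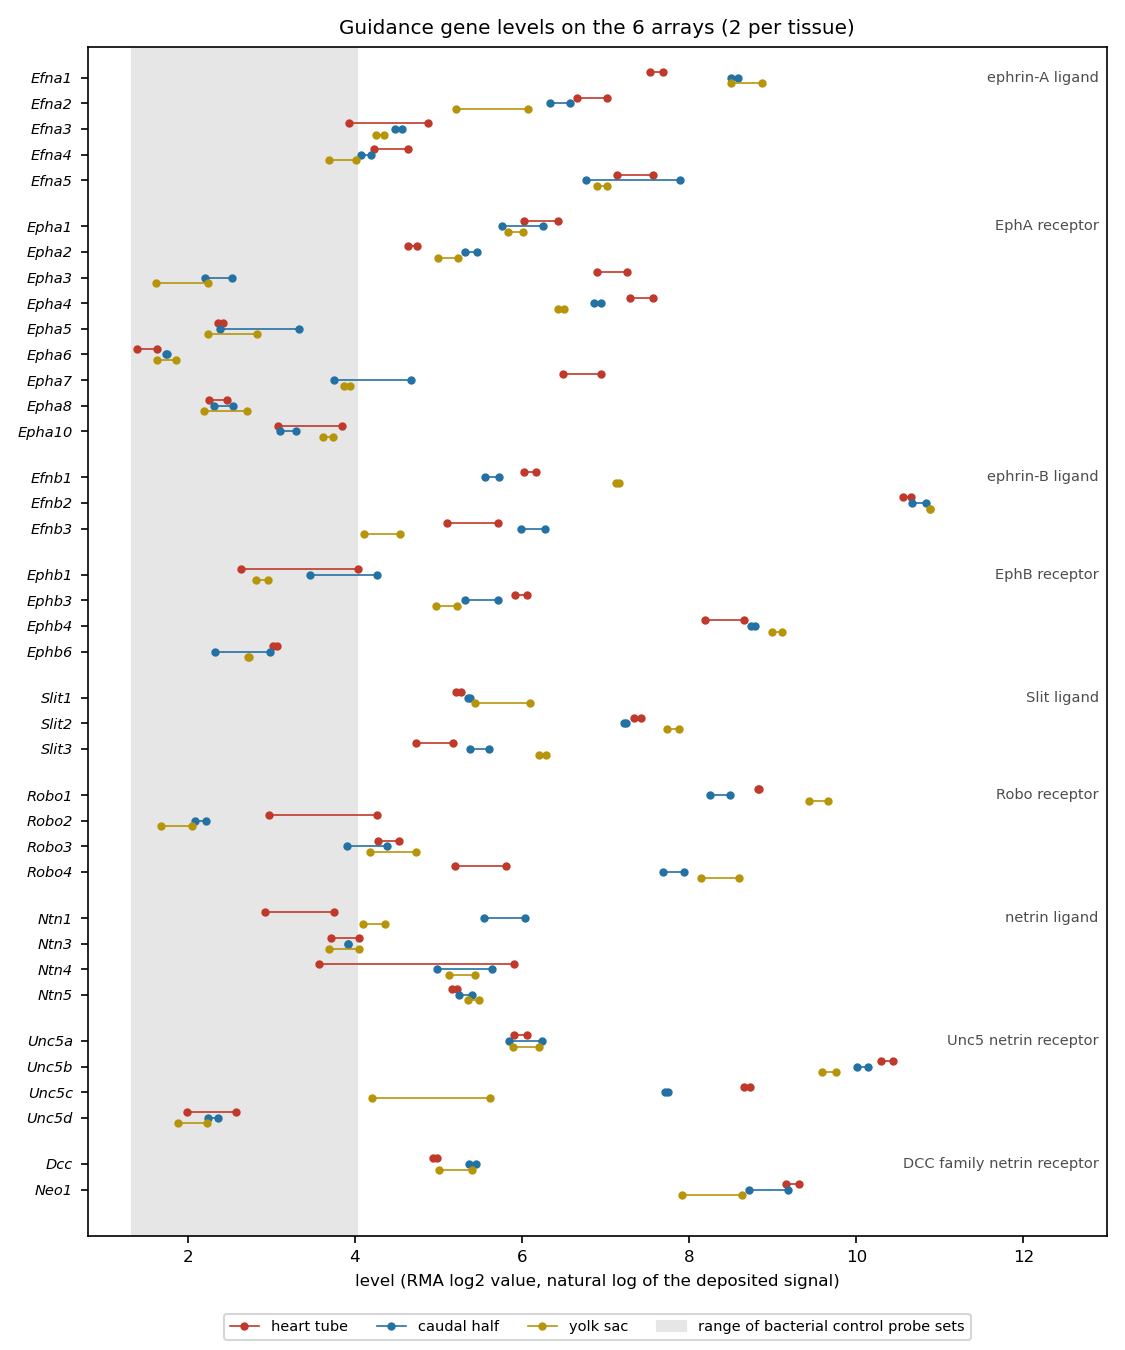
Level (log2, horizontal axis) of the 38 guidance genes on the 6 arrays, grouped by role, with a line joining the 2 arrays of a tissue and grey for the range of bacterial controls. Epha3 and Epha7 stand apart to the right in the heart tube, Robo4 to the left, and Unc5c is lowest and most spread in the yolk sac.

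Among the A-class receptors of the Eph family the heart tube stood out through Epha3. EphA3 is a receptor that mice need for normal formation of the atrioventricular endocardial cushions. Epha3 read 6.90 and 7.26 on the heart tube arrays, against 2.20 and 2.53 in the caudal-half tissue and 2.24 and 1.62 in the yolk sac. Both heart tube arrays were far above the other 4, which lay among the bacterial controls, so the differences rest on a low side near background. They came to 4.71 ± 0.27 (SE) against the caudal-half tissue and 5.14 ± 0.27 against the yolk sac (limma adjusted p = 0.000613 and 0.000217). All 4 probe sets of Epha3 gave the same direction, with 2.03 to 4.71 against the caudal-half tissue and 2.18 to 5.14 against the yolk sac, and passed the test when fitted as single probe sets (highest limma adjusted p 0.0496).

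Epha7, a receptor best known from neural patterning, had the same order of tissues. Its level was 6.50 and 6.94 in the heart tube, against 3.75 and 4.68 in the caudal-half tissue and 3.87 and 3.94 in the yolk sac. Both yolk sac arrays and the first caudal array lay among the bacterial controls. In the other probe sets of Epha7 every caudal and yolk sac array lay there. The heart tube was higher by 2.50 ± 0.32 than the caudal-half tissue and by 2.81 ± 0.32 than the yolk sac (limma adjusted p = 0.00899 and 0.00326). Its 4 probe sets all passed as well, with 1.34 to 4.23 and 1.08 to 4.17. The first of these calls was lost without the second heart tube array (limma adjusted p = 0.0640, difference 2.28), while those of Epha3 held whichever array was left out.

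Epha4, a receptor that binds ephrins of both classes, was above the yolk sac in the heart tube by 0.96 ± 0.18 (limma adjusted p = 0.0180). The arrays read 7.57 and 7.29 in the heart tube, 6.95 and 6.86 in caudal-half tissue, and 6.43 and 6.50 in the yolk sac, and no tissues overlapped. That call was lost without the first heart tube array or either yolk sac array (limma adjusted p up to 0.109) and with the mean of all its probe sets. Against the caudal-half tissue the brightest probe set gave 0.53 and did not pass, while the other 4 gave 1.17 to 1.59, 1 of which passed (limma adjusted p = 0.0380 among the named probe sets). The 5 thus disagreed on the size of this difference and not on its direction.

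The other A-class receptors did not pass in any comparison. Epha2, which vessels use in the response to ephrin-A1, read 4.64 and 4.74 in the heart tube, 5.32 and 5.46 in caudal-half tissue and 5.23 and 4.995 in the yolk sac. Its difference between heart tube and caudal-half tissue was -0.70, with a 95% interval of -1.12 to -0.28 for this gene alone, and missed the threshold over all genes (limma adjusted p = 0.0807). Epha1 lay between 5.76 and 6.43 on all arrays. Epha5, Epha6, Epha8 and Epha10 had all 3 tissue means among the bacterial controls.

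Promoter sequences help to set these genes beside each other. The RefSeq table (GRCm38.p6) gave 38 starts for 33 of the 38 genes, and the 250 bases before each start held a median of 16.5 CG dinucleotides, against 10 in the same window of 21262 starts of protein-coding genes. Of the guidance promoters 5.26% had 2 or fewer CG dinucleotides, against 22.6% of protein-coding ones. The promoters of Epha3 and Epha7, the 2 genes highest in the heart tube relative to both other tissues, are shown with that of Robo4, which went the other way. Each is the 250 bases before the first listed start, read 5′ to 3′ on the gene's strand, with every CG in capitals.
Epha3, chr16:63864176-63864425, minus strand: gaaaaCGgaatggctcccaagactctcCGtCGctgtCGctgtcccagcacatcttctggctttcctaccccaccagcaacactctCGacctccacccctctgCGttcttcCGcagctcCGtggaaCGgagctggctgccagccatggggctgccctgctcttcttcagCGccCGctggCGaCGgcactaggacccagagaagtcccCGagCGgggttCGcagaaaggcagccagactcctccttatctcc
Epha7, chr4:28812881-28813130, plus strand: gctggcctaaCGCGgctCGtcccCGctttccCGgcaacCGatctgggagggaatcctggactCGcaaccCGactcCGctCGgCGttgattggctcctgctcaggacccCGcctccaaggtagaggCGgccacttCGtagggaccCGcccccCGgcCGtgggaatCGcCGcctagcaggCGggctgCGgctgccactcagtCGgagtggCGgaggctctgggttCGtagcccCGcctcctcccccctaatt
Robo4, chr9:37401722-37401971, plus strand: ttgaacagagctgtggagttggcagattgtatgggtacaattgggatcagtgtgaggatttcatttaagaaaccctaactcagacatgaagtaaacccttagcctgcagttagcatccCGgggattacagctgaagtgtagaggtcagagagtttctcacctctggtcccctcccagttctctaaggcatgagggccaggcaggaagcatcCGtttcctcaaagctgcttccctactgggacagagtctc

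The windows of Epha3 and Epha7 held 16 and 25 CG dinucleotides at 62.8% and 69.2% G and C, whereas that of Robo4 held 2 at 49.6%. Efna1, also lower in the heart tube than in both other tissues, had 18 and 16 at its listed starts. Of genes lower there than in the yolk sac only, Slit3, Efnb1 and Robo1 had 35, 13 and 11. Of those higher, Epha4, Ephb3, Unc5b and Unc5c had 14, 16, 27 and 23, and Robo2 had 14, 8 and 4. Whether CG content goes with tissue was not tested. The search covered 5 hexamers on both strands, chosen with the expression values known, namely AGATAA and TGATAA (the core read by GATA factors), AGGAAG and CCGGAA (which contain the core read by ETS factors) and AGGTGT (T-box factors). None of the 5 contains another. The Epha3 window held AGATAA once, on the opposite strand, 8 to 3 bases before the start, and 8.81% of the protein-coding windows held it. Robo4 held AGGAAG once, 49 to 44 bases before the start, as did 28.5% of those windows at least once. Epha7 held none of the 5. Such matches are descriptions of the letters and not sites.

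Of the ephrin-A ligands, Efna1 had its lowest values in the heart tube. Ephrin-A1 was found as a product that inflammatory signals induce in human endothelium, and it acts mainly through EphA2. Efna1 read 7.53 and 7.69 in the heart tube, against 8.50 and 8.58 in the caudal-half tissue and 8.87 and 8.50 in the yolk sac. Both heart tube arrays were below the other 4. The second Efna1 probe set gave -1.16 against the caudal-half tissue and did not pass (limma adjusted p = 0.0981 among the named probe sets). Against the yolk sac it gave -1.26 and passed (0.0479). On the brightest probe set the differences were -0.93 ± 0.19 and -1.07 ± 0.19 (limma adjusted p = 0.0458 and 0.0166). The first call was lost without any single heart tube or caudal array (limma adjusted p up to 0.222) and when every probe set was fitted on its own (0.0593), and the second without either heart tube array or the first yolk sac array (up to 0.103).

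Efna2, Efna3, Efna4 and Efna5 did not pass in any comparison. The largest difference among them was that of Efna2 between heart tube and yolk sac (1.19, limma adjusted p = 0.0567), from arrays of 7.02 and 6.66 against 5.21 and 6.08. In the RefSeq gene table Efna1, Efna3 and Efna4 are next to each other on chromosome 3, with 0 protein-coding genes between. Efna4 differed by 0.31 and Efna3 by -0.12 between heart tube and caudal-half tissue, neither of which passed, beside -0.93 for Efna1. The second probe set of Efna3, of almost the same brightness, gave -0.93 and did not pass (limma adjusted p = 0.0540 among the named probe sets). The 2 probe sets of Efna3 thus disagreed on the size of this difference.

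In the B class Efnb1, Efnb3 and Ephb3 each passed in at least 1 comparison, and Efnb2 and Ephb4 in none. Efnb2, the ephrin of arterial endothelium, read 10.56 and 10.66 in the heart tube, 10.67 and 10.83 in caudal-half tissue and 10.88 and 10.88 in the yolk sac. Its differences were -0.14, -0.27 and -0.13 in the 3 comparisons, none of which passed, with 95% intervals of -0.53 to 0.25, -0.66 to 0.12 and -0.52 to 0.26. Its other 3 probe sets gave -0.21 to 0.05. Ephb4, the venous receptor of ephrin-B2, read 8.19 and 8.65 in the heart tube, 8.79 and 8.74 in caudal-half tissue and 8.995 and 9.11 in the yolk sac. It did not pass either, with -0.63 between heart tube and yolk sac (interval -1.12 to -0.14, limma adjusted p = 0.105).

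Efnb1, whose loss in mice disturbs skeletal and neural crest development, was highest in the yolk sac. Its arrays read 6.17 and 6.02 in the heart tube, 5.56 and 5.73 in caudal-half tissue, and 7.12 and 7.16 in the yolk sac, and no tissues overlapped. It was lower in both embryonic tissues, with differences from the yolk sac of -1.05 ± 0.17 for heart tube and -1.50 ± 0.17 for caudal-half tissue (limma adjusted p = 0.0106 and 0.00441). The second call held under every alternative tried, and the first was lost without either heart tube array (limma adjusted p up to 0.0736). Of its other 2 probe sets, 1 gave -1.55 between caudal-half tissue and yolk sac and passed, and 1 gave -0.59 and did not. Between heart tube and yolk sac these 2 gave -0.78 and -0.55, and neither passed (limma adjusted p = 0.204 and 0.139).

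Efnb3 ran in the other direction, at 5.10 and 5.72 in the heart tube, 5.98 and 6.28 in caudal-half tissue, and 4.11 and 4.54 in the yolk sac. Ephrin-B3 is known as a midline cue of the nervous system. The caudal-half tissue was higher than the yolk sac by 1.80 ± 0.27 (limma adjusted p = 0.0119), a call that was lost without either caudal array or the first yolk sac array (up to 0.0694). Efnb1 and Efnb3 thus stood in opposite order in these tissues. For the heart tube against the yolk sac Efnb3 gave 1.08 and narrowly missed the threshold (limma adjusted p = 0.0504).

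Ephb3, which acts with other B-class receptors in vessel formation, read 5.91 and 6.06 in the heart tube, 5.71 and 5.32 in caudal-half tissue and 4.97 and 5.22 in the yolk sac. Its difference of 0.89 ± 0.20 between heart tube and yolk sac passed (limma adjusted p = 0.0397). That call was kept under 7 of the 14 alternatives, which are not all separate checks. Log2 of the signal, among the 7, cannot change a p-value, and leaving out a caudal array repeats the fit on 2 tissues only. The call was lost without any single heart tube or yolk sac array and with the replicate block (limma adjusted p = 0.0682). It was also lost with a variance trend (0.0524) and when every probe set was fitted on its own (0.0501). Ephb1 and Ephb6 passed nowhere, and Ephb1 differed by 1.40 between its 2 heart tube arrays.

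**Figure D3:**
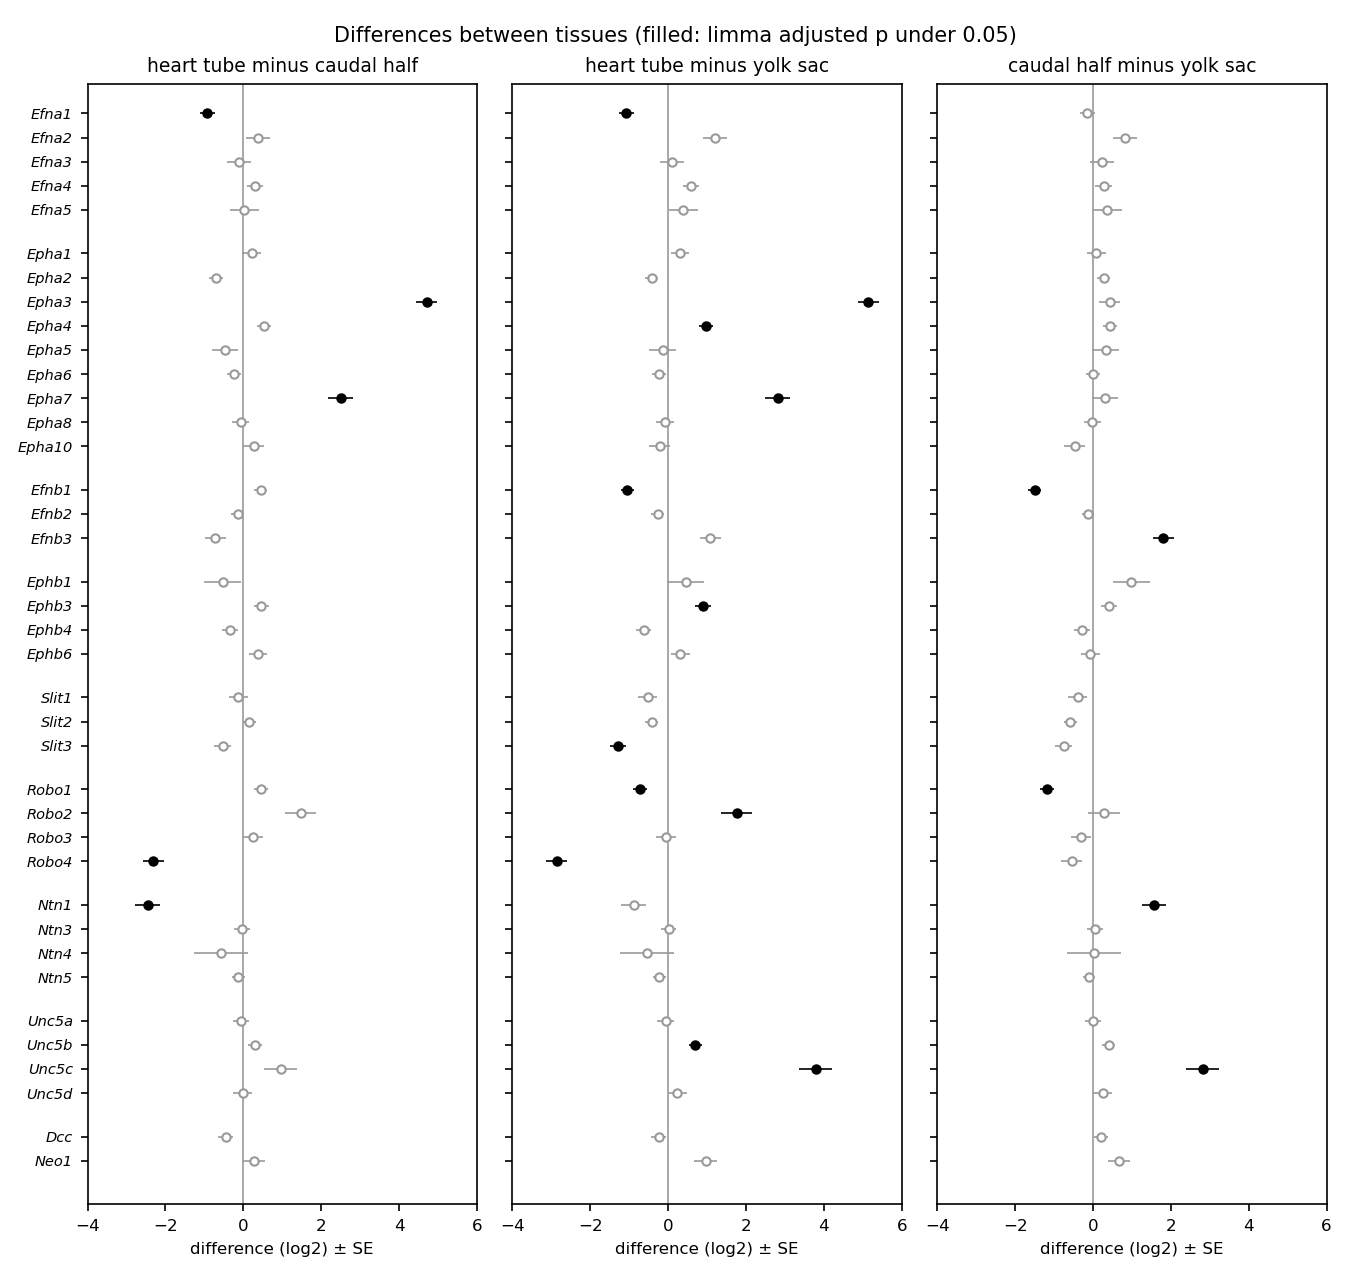
Difference (log2) of each of the 38 genes in the 3 comparisons, with bars for the SE from limma and filled symbols for an adjusted p under 0.05. Epha3, Epha7 and Unc5c lead to the right against the yolk sac, and Robo4 leads to the left.

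In the Slit-Robo system the largest difference that passed was in Robo4, the Robo receptor of endothelium, known for stabilising vessels. Robo4 read 5.80 and 5.20 in the heart tube, against 7.94 and 7.69 in the caudal-half tissue and 8.14 and 8.60 in the yolk sac. Both heart tube arrays were below all others, and the other 2 tissues did not overlap, but the difference between them did not pass (-0.55, limma adjusted p = 0.283). The heart tube was lower, with differences of -2.32 ± 0.27 against caudal-half tissue and -2.87 ± 0.27 against the yolk sac (limma adjusted p = 0.00629 and 0.00155), or 4.98-fold and 7.29-fold. The first call was lost without the first caudal array (limma adjusted p = 0.0521), and the second held under every alternative tried. Robo4 has a single probe set here. Of 10 pan-endothelial markers, 4 were likewise lower in the heart tube when set against the caudal-half tissue and 6 against the yolk sac, with medians of -0.77 and -0.87 over the list, and their part in the Robo4 result was not tested.

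Robo1, the broadly expressed receptor that vessels share with axons, was highest in the yolk sac. It read 8.83 and 8.82 in the heart tube, 8.49 and 8.25 in caudal-half tissue and 9.66 and 9.44 in the yolk sac, with no overlap between tissues. Caudal-half tissue was lower than the yolk sac, with a difference of -1.17 ± 0.18 (limma adjusted p = 0.0128), and this was lost without the second caudal or the first yolk sac array (up to 0.0676). Between heart tube and yolk sac the difference of -0.72 passed only just (limma adjusted p = 0.0498) and was lost whichever array was left out (up to 0.185) and when every probe set was fitted on its own (0.0634). The dimmest probe set of the gene gave -2.40 for heart tube and -2.37 for caudal-half tissue, each against the yolk sac, and passed in both. Its heart tube and caudal arrays lay among the bacterial controls. The second brightest probe set gave -0.27 and -0.52 in these comparisons and did not pass (limma adjusted p = 0.536 and 0.275). The mean of the probe sets gave -1.13 between heart tube and yolk sac (limma adjusted p = 0.00661).

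Robo2 exceeded its yolk sac level in the heart tube by 1.76 ± 0.41 (limma adjusted p = 0.0399). Its arrays read 2.97 and 4.27 in the heart tube, 2.21 and 2.08 in caudal-half tissue and 2.05 and 1.68 in the yolk sac, so that 5 of the 6 lay among the bacterial controls. Without the second heart tube array the difference was 1.11 and the call was lost (limma adjusted p = 0.0776). It was also lost without either caudal or either yolk sac array (up to 0.142), and with the second heart tube array alone the difference was 2.40. Robo3, which neighbours Robo4 on chromosome 9 with 0 protein-coding genes between, read 3.91 to 4.73 on all arrays and passed nowhere. Robo1 and Robo2 are neighbours on chromosome 16, and against the yolk sac the heart tube was lower for Robo1 and higher for Robo2.

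On their brightest probe sets, the Slit ligands had their highest means in the yolk sac. Slit3 read 4.73 and 5.18 in the heart tube, 5.60 and 5.38 in caudal-half tissue and 6.20 and 6.29 in the yolk sac. Its difference of -1.29 ± 0.21 between heart tube and yolk sac passed (limma adjusted p = 0.0113), and it was lost without the first heart tube or the second yolk sac array (up to 0.0660). Slit3 is a secreted ligand known in vessels and in the development of the diaphragm and heart. Slit2, the best-studied Slit ligand of vessels, read 7.43 and 7.34 in the heart tube, 7.24 and 7.22 in caudal-half tissue and 7.88 and 7.74 in the yolk sac and did not pass, with -0.43 between heart tube and yolk sac (95% interval -0.81 to -0.04). Its other probe sets gave 0.34 and 0.16 there, and the mean of all 3 turned that sign, to 0.025. Slit1 lay between 5.21 and 6.10 on all arrays and did not pass. Its second probe set was lowest in the yolk sac, at 4.69 and 4.64, and did not pass either.

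Among the netrin receptors, Unc5c separated the embryonic tissues from the yolk sac. UNC5C is a netrin receptor that repels axons. Unc5c read 8.66 and 8.73 in the heart tube, 7.71 and 7.75 in caudal-half tissue, and 5.62 and 4.20 in the yolk sac. The 4 embryonic arrays lay above both yolk sac arrays, which were 1.42 apart, the widest gap among the 38 genes in that tissue. The heart tube was higher than the yolk sac by 3.79 ± 0.42 and the caudal-half tissue by 2.82 ± 0.42 (limma adjusted p = 0.00294 and 0.0119), or 13.8-fold and 7.05-fold. Its second probe set gave 3.04 and 2.74. The first call held under every alternative tried, and the second was lost without either caudal array (up to 0.0693). Between heart tube and caudal-half tissue the 0.97 did not pass (limma adjusted p = 0.280), but it did when the yolk sac arrays were left out of the spread (0.0364). The second probe set gave 0.30 in this comparison and did not pass (0.755).

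Unc5b, the Unc5 receptor of tip cells and arteries, read 10.44 and 10.30 in the heart tube, 10.14 and 10.01 in caudal-half tissue and 9.76 and 9.59 in the yolk sac. The tissues did not overlap, and the difference of 0.70 ± 0.17 between heart tube and yolk sac passed (limma adjusted p = 0.0462). It was lost whichever array was left out and kept under 3 of the 14 alternatives. These include log2 of the signal, a rescaling that cannot change a p-value. Unc5a lay between 5.85 and 6.23 on all arrays, and Unc5d had all 3 means among the bacterial controls. Of the DCC family, Neo1 (neogenin, also a receptor of repulsive guidance molecules) read 9.16 and 9.31 in the heart tube, 9.18 and 8.72 in caudal-half tissue and 7.92 and 8.63 in the yolk sac and did not pass. Its second probe set passed between heart tube and yolk sac (1.73, limma adjusted p = 0.0160 among the named probe sets). Dcc read 4.94 to 5.45 and did not pass.

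On the ligand side, Ntn1 was highest in the caudal-half tissue. Netrin-1 is the founding netrin, made by the floor plate of the neural tube among other sites. Ntn1 read 2.93 and 3.76 in the heart tube, 6.04 and 5.55 in caudal-half tissue and 4.36 and 4.10 in the yolk sac, with no overlap. The heart tube was lower than caudal-half tissue (-2.45 ± 0.32), with its own level among the bacterial controls, and the caudal-half tissue was higher than the yolk sac by 1.57 ± 0.32 (limma adjusted p = 0.00897 and 0.0314). Without the first caudal array the first call was lost (limma adjusted p = 0.0639), and the second was lost without any single caudal or yolk sac array (up to 0.149). The second probe set of Ntn1, of almost the same brightness, gave -0.25 and -0.15 in these comparisons and did not pass, so the 2 probe sets disagreed. The mean of both gave -1.35 between heart tube and caudal-half tissue (limma adjusted p = 0.0214) and 0.71 between caudal-half tissue and yolk sac (0.118). Of 8 neural and neural crest markers, Sox2 was lower in the heart tube (-5.36) and Tubb3 higher (4.29) than in the caudal-half tissue. The list averaged 3.56 and 3.59 in the heart tube, 3.95 and 3.86 in caudal-half tissue and 3.39 and 3.21 in the yolk sac. In 5, 4 and 6 of its genes the mean was among the bacterial controls, and its part in the Ntn1 result was not tested.

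Ntn4, the netrin of basement membranes, passed nowhere and varied most between replicates. It read 3.57 and 5.90 in the heart tube, 5.64 and 4.99 in caudal-half tissue and 5.44 and 5.13 in the yolk sac, and its heart tube arrays overlapped both other tissues. The difference of -0.58 between heart tube and caudal-half tissue had a 95% interval of -2.25 to 1.09 and became 0.59 without the first heart tube array. Ntn3 and Ntn5 passed nowhere, at 3.69 to 4.05 and 5.17 to 5.49.

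**Figure D4:**
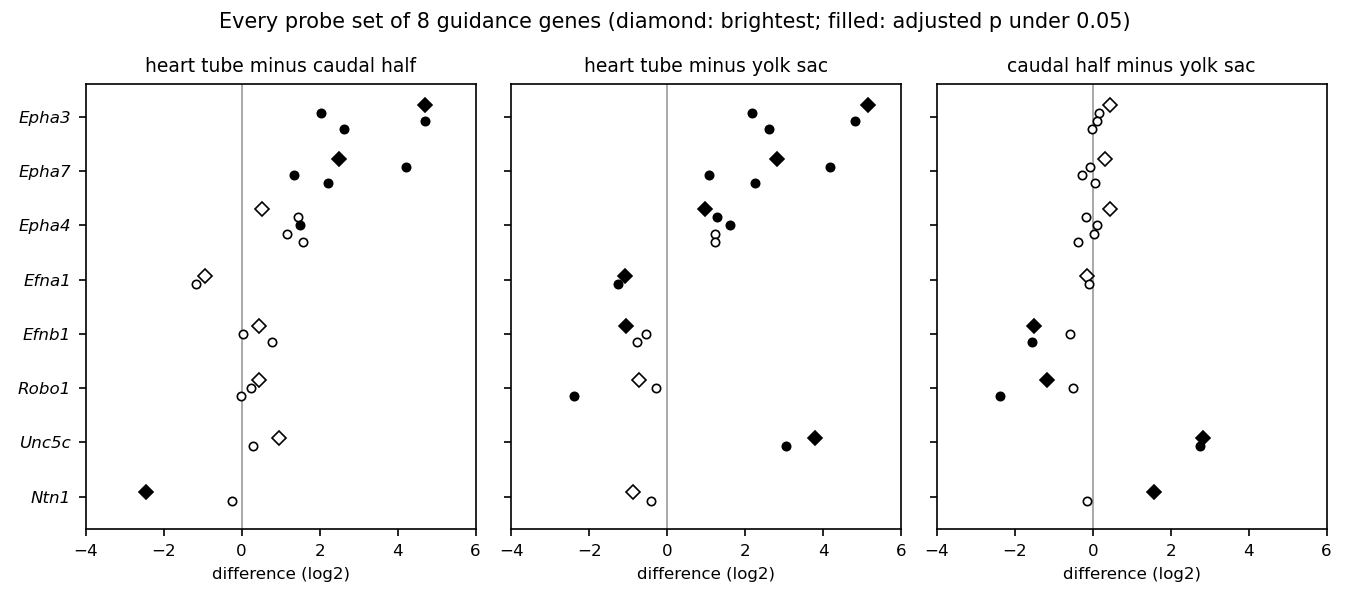
Difference (log2) of every probe set of 8 guidance genes in the 3 comparisons, with diamonds for the brightest probe set of a gene and filled symbols for an adjusted p under 0.05 among the named probe sets. The 4 probe sets of Epha3 and of Epha7 lie on 1 side in the first pair of comparisons, whereas those of Ntn1 disagree. The brightest probe sets of Efna1 (against caudal-half tissue) and Robo1 (heart tube against yolk sac) did not pass in this fit over more features.

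Ligands and receptors of a system can be set beside each other. Against the yolk sac, the A-class receptors Epha3, Epha4 and Epha7 were higher in the heart tube while the ligand Efna1 was lower. The other A-class ligands had positive differences that did not pass, namely Efna2 (1.19), Efna4 (0.58), Efna5 (0.39) and Efna3 (0.10). Of the other A-class receptors Epha1 was positive (0.30) and did not pass. Epha2 (-0.43), Epha6 (-0.23), Epha10 (-0.21), Epha5 (-0.14) and Epha8 (-0.09) were negative, as Efna1 was, and did not pass either. In the B class Ephb4 (-0.63), Efnb2 (-0.27), Ephb1 (0.45) and Ephb6 (0.315) did not pass. Ephb3 was higher and Efnb1 lower in the heart tube, and Efnb3 (1.08) narrowly missed the threshold. The netrin receptors Unc5b and Unc5c were higher there, and 0 of 4 netrins passed (1 at an unadjusted p under 0.05, beside 4734 of the 18193 genes). Slit3 was lower there together with Robo1 and Robo4, whereas Robo2 was higher. Unc5b and Robo1 passed only just (limma adjusted p = 0.0462 and 0.0498). These are differences of each gene with itself between tissues, since levels of different probe sets cannot be ranked.

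Markers of other cells moved with some of these genes. Of 8 mesenchymal markers, 5 were higher and 0 lower in the heart tube when set against the caudal-half tissue, among them Pdgfra (3.12) and Twist1 (3.48), beside the higher Epha3 and Epha7. The rest of that list, Lum (-1.76), Col1a1 (-0.63) and Prrx1 (-0.355), had negative differences that did not pass. Against the yolk sac 3 of the 8 were higher and 3 lower, with Pdgfra at 4.31 and Col1a1 at -4.55. Of 10 cardiomyocyte markers, 4 were higher than in the caudal-half tissue and 5 than in the yolk sac, and the list averaged 6.73 and 6.56 in the heart tube, 4.73 and 4.88 in caudal-half tissue and 4.34 and 4.31 in the yolk sac. All 8 visceral endoderm markers were lower in both the heart tube and the caudal-half tissue when set against the yolk sac, beside the lower Efnb1 and Robo1. Of 6 epithelial markers, 5 were lower in the heart tube and 3 in caudal-half tissue on the same comparison. Against caudal-half tissue 4 of the 6 were lower in the heart tube, among them Cdh1 (-3.10) and Epcam (-3.12), beside the lower Efna1, Ntn1 and Robo4. Of 5 erythroid markers Hba-x and Hbb-bh1 were lower in the heart tube than in both other tissues (-3.91 and -3.76 against the yolk sac), and with Alas2 they were lower in caudal-half tissue against the yolk sac. Klf1 was higher in the heart tube against the yolk sac (2.14). Of 5 somite markers 0 passed in limma for the heart tube (4 at an unadjusted p under 0.05 against caudal-half tissue and 1 against the yolk sac), while Meox1 (1.40) and Tcf15 (1.77) were higher in caudal-half tissue against the yolk sac, beside the higher Efnb3, Ntn1 and Unc5c. The part of these cells in the differences of the guidance genes was not tested.

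Partners of these receptors were also measured, as a list of 45 genes for adaptors, effectors and co-receptors. In the heart tube 5 were higher and 1 lower than in the caudal-half tissue (13.3% of the list beside 5.51% of all genes), and 8 higher and 7 lower than in the yolk sac (33.3% beside 11.8%). Gpc1, the glypican that binds Slits, was higher in the heart tube by 1.19 and 2.40, and Grip1, a scaffold that binds ephrin-B and Eph tails, by 1.29 and 2.38. The heparan sulfate genes Sdc1 (0.92 and 1.07) and Ext1 (0.88 and 1.45) passed in both comparisons, whereas Sdc2 (0.91 and -0.19) passed in the first only. Arhgef15 was lower (-1.10 and -1.27). Flrt3, a membrane ligand of Unc5 receptors, differed from the yolk sac by -2.39 in heart tube cells and by -2.05 in caudal ones. Ablim1 likewise gave -1.35 and -1.96, and Enah 1.61 and 1.32, all of which passed. Between the caudal-half tissue and yolk sac 5 partners were higher and 3 lower (17.8% beside 9.08%). The higher ones included the kinase gene Src (2.38) and Tiam1, a Rac activator (1.62), and the lower ones included Sdc2 (-1.10).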

How the data were processed

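Signals of 45101 Affymetrix probe sets on 6 arrays were used. RMA of the affy package gave the deposited intensities, per the submitters' processing notes; no version is given in what was used here. The deposited intensities ran from 2.46 to 2172540, above what a 16-bit scanner gives, so their natural log (0.899 to 14.6) was read as the authors' RMA log2 value. The base is not stated. Depth does not apply to arrays: the number of arrays limits the precision, with a median standard error of a difference of 0.210.

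Gene symbols came from the platform annotation (34958 probe sets with 1 symbol, 932 with several, 9211 without). All 38 guidance genes matched a RefSeq gene by Entrez identifier, with 0 newer symbols. Genes of these families without such a probe set were not analysed here.

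The 3 tissues were compared in limma 3.58.1 under R 4.3.3 (lmFit, then eBayes, two-sided) over all 6 arrays without a covariate, with 3 residual and 3.48 prior degrees of freedom, and adjusted over 18193 genes. The fit was tested on simulated data. SE are those of limma, and 95% intervals for a gene use its t distribution, unadjusted. Single probe sets were adjusted over 34945 named ones. The design had assumed log values, and the test was kept after the conversion. With 1 array left in a tissue, that array is assumed to vary like the others. Members, gene lists, motifs and the rule for named genes (members called in at least 1 comparison, plus 11 chosen for their vascular role) were chosen with earlier results of these data known. Alternatives covered the replicate block, single arrays left out, the mean of probe sets, dim genes, quantile normalization, arrays of 2 tissues only, log2 of the signal, and a variance trend. Fitting each probe set on its own was added after seeing the data.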

Additional observations from a re-analysis of the deposited data

How the results depend on the processing

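With a single array left out, the count of guidance genes called ranged from 2 to 6 between heart tube and caudal-half tissue (5 with all arrays), from 5 to 9 between heart tube and yolk sac (12) and from 1 to 5 between caudal-half tissue and yolk sac (5). Over all genes the counts ranged from 376 to 899, from 936 to 1794 and from 638 to 1155, against 1002, 2150 and 1652. The other 8 alternatives, the replicate block among them (4, 9 and 4 guidance genes, and 776, 1876 and 1356 genes in all), stayed within 1.5 times these counts. With the replicate block, Efna1 lost its call between heart tube and caudal-half tissue, and Ntn1 between caudal-half tissue and yolk sac. Ephb3, Robo1, Robo2 and Unc5b lost theirs between heart tube and yolk sac. Same-numbered replicates did not deviate together (correlations of -0.00681 to 0.0468 across genes), so the numbers were not taken as pairs. Of the 22 differences called, all kept their sign and 6 kept their call under all 14 alternatives: Epha3 in both comparisons, and against the yolk sac Epha7, Robo4 and Unc5c in the heart tube and Efnb1 in the caudal-half tissue. Robo1 and Unc5b between heart tube and yolk sac lost theirs whichever array was left out. The 14 alternatives were not all separate checks, since log2 of the signal only rescales the values and cannot change a p-value. Leaving out an array of the tissue outside a comparison repeated the fit on the arrays of 2 tissues only. Reversals occurred only among differences that had not passed. Ntn4 between heart tube and caudal-half tissue ran from -1.74 to 0.59 with an array left out, the highest without the first heart tube array, and was 0.0094 with the mean of its probe sets. Between heart tube and yolk sac it ran from -1.71 to 0.62, again highest without that array. Between the caudal-half tissue and yolk sac Ntn4 ran from -0.30 (without the first caudal array) to 0.36, was -0.12 without the second yolk sac array and was -0.30 with the mean of its probe sets. In the same comparison Epha7 ran from -0.15 (without the second caudal array) to 0.77 and Efna1 from -0.33 to 0.041 (without the first yolk sac array). Slit2 between heart tube and yolk sac was 0.025 with the mean of its probe sets. The cause was not tested. Signals within the range of the bacterial controls limit Epha3, Epha7, Robo2 and Ntn1, whose mean lies there in at least 1 tissue.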

Other observations

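Replicates of the guidance genes lay about as close as those of other genes. The median gap between the 2 arrays of a tissue over the 38 genes was 0.27 for heart tube, 0.21 for caudal and 0.25 for yolk sac arrays, beside 0.20, 0.23 and 0.23 over all genes. The widest gaps were those of Ntn4 in the heart tube (2.33), Unc5c in the yolk sac (1.42) and Efna5 in the caudal-half tissue (1.13).

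Among the 38 promoter windows, those of Robo4 and Ntn5 had 2 CG dinucleotides each, and those of Epha8 and Neo1 had the most, with 46 and 45.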
